A study of Saccharomyces cerevisiae with 16 samples.

Results

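The genes described here encode 10 subunits of SAGA, a yeast transcription coactivator. They were chosen by name: SPT3, SPT7, SPT8, SPT20, ADA2, NGG1, GCN5, HFI1, TRA1 and SGF29. Each was read by 1 probe set of the Affymetrix Yeast Genome 2.0 array, and they are 10 of the 5449 S. cerevisiae genes measured. All 10 passed the filter on dim genes, which left 4360 genes in the tests.

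SAGA is brought to promoters by activators, acetylates histone H3 and hands the TATA-binding protein (TBP) to the promoter. TFIID, the other large complex that delivers TBP, shares several TAF proteins with SAGA, and genes have long been sorted by which complex they lean on. The 10 proteins fall into modules: Spt7, Spt20 and Hfi1 (Ada1) hold the core together, Spt3 and Spt8 contact TBP, Gcn5, Ada2, Ngg1 (Ada3) and Sgf29 form the acetyltransferase module, and Tra1 binds activators. The group is not wholly private to SAGA, since Tra1 is also a subunit of the NuA4 acetyltransferase and the Gcn5 module is also part of the separate ADA complex.

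In the study, budding yeast of W303 parentage was used in which a TFIID subunit can be pulled out of the nucleus. The genotype label is MATalpha with tor1-1, fpr1::NAT, RPL13A tagged with FKBP12 (written 2xFKB12 and marked TRP1) and TAF4-FRB::HYGRO, and it is shared by every sample, the control samples and those labelled Taf5 included. Rapamycin (1 µg/mL) ties the FRB-tagged protein to the ribosomal anchor, which carries it out of the nucleus, and DMSO was the control. After 30 min, 5 mM 4-thiouracil was added for 6 min. Steady-state RNA is the total RNA, and newly synthesized RNA is the labelled part purified from it. Wild-type fission yeast (Schizosaccharomyces pombe), labelled likewise, served as the spike-in, at a ratio of S. cerevisiae to S. pombe of 3 to 1. The 4 groups compared carry the Taf4 label: steady-state RNA without and with rapamycin, and newly synthesized RNA without and with rapamycin, each with 2 arrays. Every strain here carries the tag, so what the drug itself does and what the loss of nuclear Taf4 does cannot be told apart. Separate cultures are not named for the replicates, and p-values therefore cover only how far these arrays lay from each other, which may be technical spread.

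A fault in the labels touches every value below. Of 16 deposited columns, 6 of those labelled Taf5 equal a Taf4-labelled column divided by 5, to within 0.001 signal units, under the same rapamycin label but the opposite fraction label. Only 10 arrays are distinct, and which fraction label is right for the copied arrays cannot be told from the files. Groups are therefore named by their labels, and the 2 Taf5-labelled arrays that recur nowhere are described apart. The mating type did match: all 4 alpha-cell markers (MF(ALPHA)1, MF(ALPHA)2, STE3, SAG1) lay at the 80.1th to 99.1th percentile of mean signal, and all 5 a-cell markers (MFA1, MFA2, STE2, BAR1, AGA2) at the 3.1th to 7.4th. TAF4 mRNA, which does not measure the nuclear protein, fell by 1.35 (SE 0.22) in newly synthesized and by 1.50 (SE 0.22) in steady-state RNA on the log2 scale (adjusted p = 7.37e-06 and 1.72e-07). Against the other S. cerevisiae genes the changes of TAF4 were -0.52 (adjusted p = 0.0459) and -0.23, and the latter did not pass (adjusted p = 0.27).

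Signals are given as log2 of the deposited intensity after each array was shifted to the same S. pombe median. A level is therefore relative to the spike-in, and fewer cells and less RNA per cell cannot be told apart. Levels of different genes are not compared, because each comes from its own probe set. Changes are differences on that log2 scale with the standard error (SE) of limma's fit over the 8 Taf4-labelled arrays. A gene is called changed at an adjusted p under 0.05 (Benjamini-Hochberg over the 4360 genes of a contrast, two-sided). The whole transcriptome shifted on this scale: the median of all genes was -0.78 with rapamycin in newly synthesized RNA and -1.17 in steady-state RNA. With the S. cerevisiae medians made equal instead, these medians were 0.05 and 0.09. The tests of the SAGA genes are therefore given both against the spike-in and against the other S. cerevisiae genes, while values of single arrays are on the spike-in scale.

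**Figure D1:**
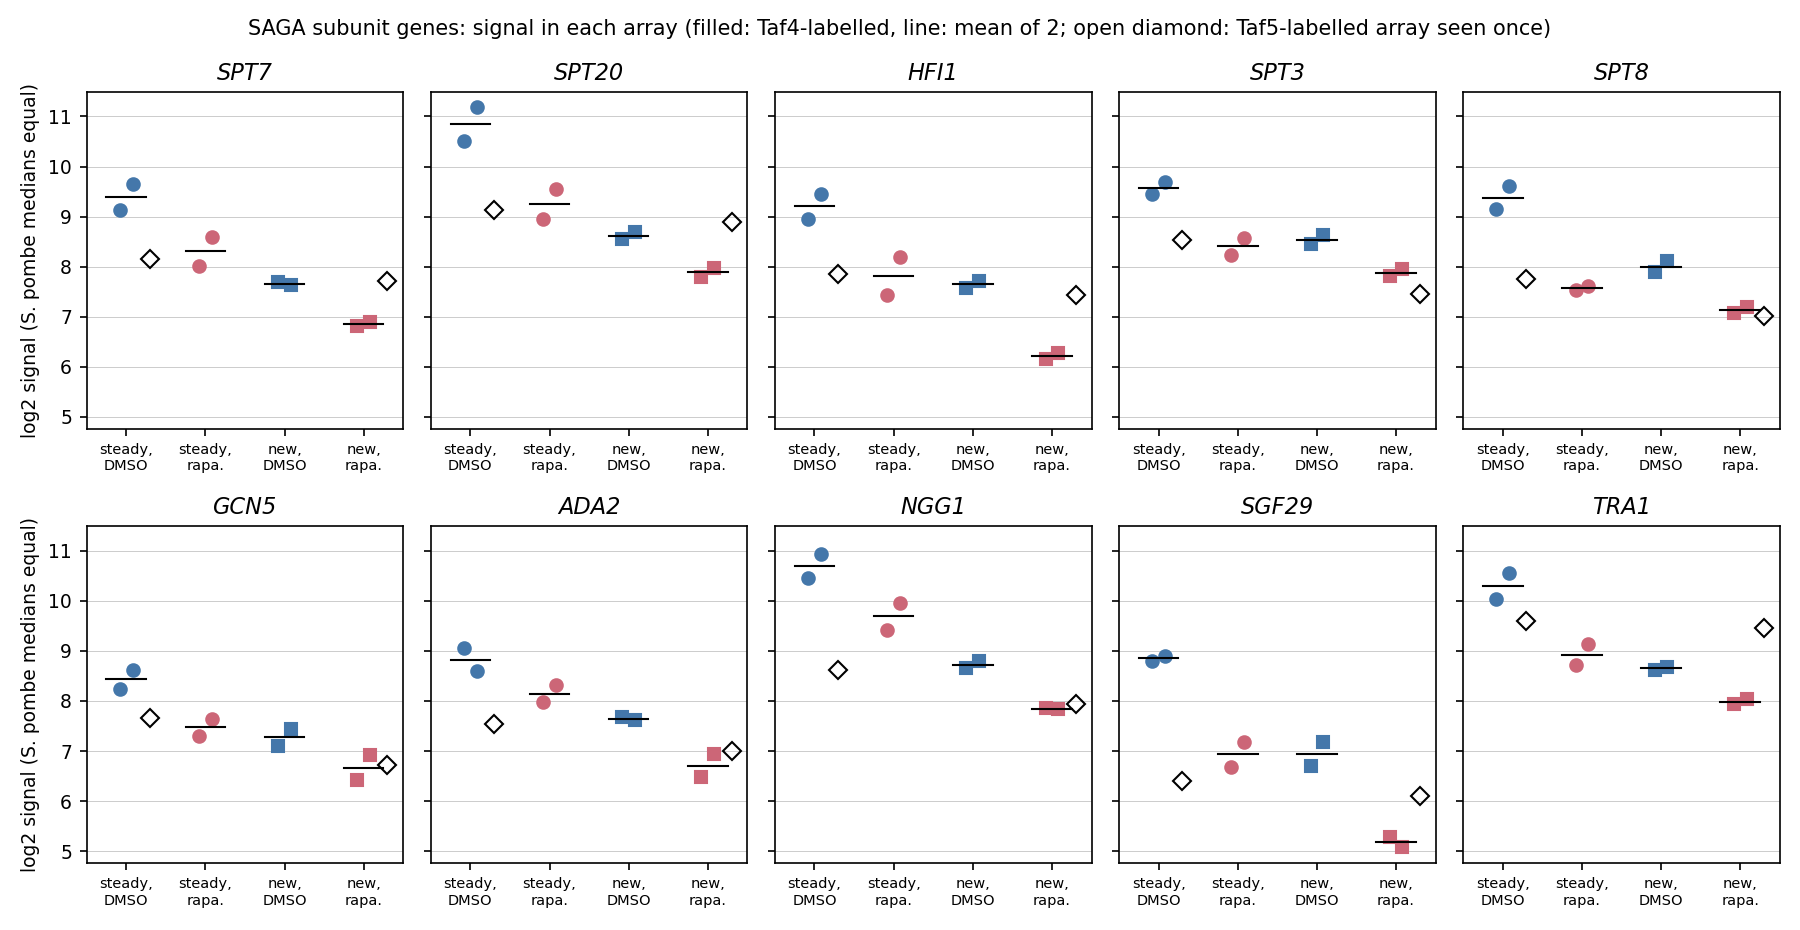
Log2 signal of each SAGA subunit gene in each array, with S. pombe medians made equal. Filled points are the 2 Taf4-labelled arrays of a group (circles steady-state, squares newly synthesized; blue DMSO, red rapamycin), lines are their means and open diamonds are the 2 Taf5-labelled arrays that recur nowhere. Among the Taf4-labelled groups, the mean of steady-state RNA without rapamycin is highest in all 10 genes, as in 90.8% of all genes tested. That of newly synthesized RNA with rapamycin is lowest in all 10, as in 87.9%. With S. cerevisiae medians made equal the former holds in 5 and the latter in 3 of the 10 genes, beside 27.9% and 22.3%.

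In newly synthesized RNA all 10 SAGA genes fell with rapamycin relative to the spike-in, while with S. cerevisiae medians made equal 5 of them (SPT3, SPT7, SPT20, GCN5, TRA1) turned to values above 0 that did not pass. The falls ran from 0.61 for GCN5 to 1.76 for SGF29, that is 1.53-fold to 3.38-fold lower, with a median of -0.83. Of all genes tested 79.4% fell and 1.79% rose, so a full set of 10 lower calls is close to what most genes did. In every one of the 10, both arrays with rapamycin lay below both arrays without it, as they did for 92.9% of all genes.

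SGF29 encodes the subunit that reads methylated histone H3 through a Tudor domain. It stands at YCL010C on chromosome III, 103571 to 104350 (R64 assembly). Its newly synthesized signal was 6.70 and 7.17 without rapamycin and 5.29 and 5.07 with it. The 2 groups were far apart, by 1.76 (SE 0.23, adjusted p = 4.07e-07), and only 0.5% of genes had a more negative change. Against the other S. cerevisiae genes it still fell, by 0.93 (SE 0.15, adjusted p = 0.00156). SGF29 was dim, at the 23.8th percentile of mean signal. Its 2 newly synthesized signals with rapamycin lay within the range of the a-cell marker AGA2 (4.73 to 5.51). How far they stood above background was not tested.

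HFI1, which encodes the core subunit Ada1, lies on chromosome XVI, 69485 to 70951 (YPL254W). Its newly synthesized signal was 7.58 and 7.72 without rapamycin and 6.17 and 6.28 with it. Replicates lay close together and the groups apart, by 1.43 (SE 0.24, adjusted p = 9.22e-06), or 2.69-fold. The fall of HFI1 passed against the other S. cerevisiae genes too, at 0.60 (SE 0.14, adjusted p = 0.0121). SGF29 and HFI1 were the 2 of 10 members called lower on that scale, on which 8.92% of all genes were lower and 15.6% higher; the other 8 had changes between -0.11 and 0.21 that did not pass.

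Those 8 genes moved close to the median gene. The remaining core subunits were SPT7 (7.70 and 7.63 without, 6.82 and 6.90 with rapamycin, change -0.80) and SPT20 (8.55 and 8.70 without, 7.80 and 7.98 with, change -0.73). Of the genes of the TBP-contacting pair, SPT3 fell from 8.46 and 8.63 to 7.81 and 7.95, a change of -0.66, and SPT8 from 7.90 and 8.11 to 7.08 and 7.19, a change of -0.87. No group overlapped its counterpart. In the acetyltransferase module, GCN5, the catalytic subunit, fell from 7.11 and 7.45 to 6.42 and 6.92, with an SD between replicates of 0.24 and 0.35. ADA2, which activates Gcn5, fell from 7.68 and 7.61 to 6.48 and 6.93 (change -0.94), and NGG1, its linker, from 8.65 and 8.80 to 7.86 and 7.84 (change -0.88). The change of TRA1 was -0.66, from 8.61 and 8.68 to 7.94 and 8.04. The 8 changes thus lay between -0.94 and -0.61, with SE values of 0.22 to 0.24, and differences among them were not tested. These SE values rest on a spread per gene shared by both fractions. The median SD between replicates over all genes was 0.10 and 0.08 in newly synthesized RNA and 0.24 and 0.24 in steady-state RNA. Fitted on the 4 newly synthesized arrays alone, all 10 members were called lower, as were 89.1% of all genes. Without newly synthesized replicate 2 without rapamycin, or without replicate 1 with it, SPT3, SPT20, GCN5 and TRA1 did not pass (adjusted p = 0.0529 to 0.27), which left 6 members called, beside 54.6% and 61.6% of all genes. On the values as deposited, where 48.5% of all genes fell, SPT3, SPT7, SPT20, GCN5 and TRA1 did not pass (adjusted p = 0.0544 to 0.289), and GCN5 did not pass with a loess curve through the S. pombe genes (adjusted p = 0.0514).

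In steady-state RNA all 10 SAGA genes also fell relative to the spike-in, by 0.68 for ADA2 to 1.92 for SGF29 (1.60-fold to 3.77-fold), with a median of -1.26, while 5 of them (SPT3, SPT7, ADA2, NGG1, GCN5) turned to values above 0, none passing, with S. cerevisiae medians made equal. Of all genes 86.8% fell and 1.42% rose, and in 91.5% both arrays with rapamycin lay below both without it, as in all 10 members. The member count again sits near that background.

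SGF29 was again the largest fall of the 10. Its steady-state signal was 8.79 and 8.90 without rapamycin and 6.69 and 7.18 with it, a fall of 1.92 (SE 0.23, adjusted p = 5.45e-09). SPT8, on chromosome XII, 251272 to 253080 (YLR055C), was next. It stood at 9.15 and 9.60 without rapamycin and at 7.54 and 7.62 with it, a fall of 1.80 (SE 0.22, adjusted p = 8.68e-09), or 3.48-fold. Both genes passed against the other S. cerevisiae genes, SGF29 with a fall of 0.65 (SE 0.15, adjusted p = 0.00456) and SPT8 with one of 0.53 (SE 0.13, adjusted p = 0.00612). They were the 2 of 10 members called lower there, among 18.1% of all genes, and 0 members were called higher, among 32% of all genes.

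SPT20, whose protein keeps SAGA intact, fell by 1.60 (SE 0.24), from 10.51 and 11.18 to 8.95 and 9.54. Against the other genes its change was -0.33 and did not pass (adjusted p = 0.0711). HFI1 fell by 1.39, from 8.95 and 9.46 to 7.43 and 8.19, and TRA1 by 1.37, from 10.03 and 10.55 to 8.71 and 9.14. SPT3 fell by 1.16, SPT7 by 1.09, NGG1 by 1.01 and GCN5 by 0.95. On the spike-in scale each of these genes, and HFI1 and TRA1 as well, lay within 1 SE of the median gene. With S. cerevisiae medians made equal SE values were smaller, and the median gene was at 0.09. There NGG1 was at 0.26 (SE 0.12), GCN5 at 0.32 (SE 0.15), HFI1 at -0.12 (SE 0.14) and TRA1 at -0.10 (SE 0.12). None of these genes passed there. Steady-state replicates were less alike than newly synthesized ones: the median SD of the 10 members was 0.34 without and 0.32 with rapamycin, against 0.10 and 0.09 in newly synthesized RNA. Over all genes it was 0.24 and 0.24, against 0.10 and 0.08, so this difference is not particular to the members.

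ADA2 fell least. Its steady-state signal was 9.06 and 8.59 without rapamycin and 7.97 and 8.33 with it, a fall of 0.68 (SE 0.23, adjusted p = 0.00609). The groups did not overlap, but the gap between the nearest arrays was of the order of the SD within each (0.335 without and 0.252 with rapamycin). ADA2 did not pass without steady-state replicate 1 without rapamycin (adjusted p = 0.103) or without replicate 1 with it (adjusted p = 0.069), nor on the values as deposited (-0.15, adjusted p = 0.547). Against the other S. cerevisiae genes its change was 0.59 (SE 0.23), which did not pass (adjusted p = 0.0552).

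**Figure D2:**
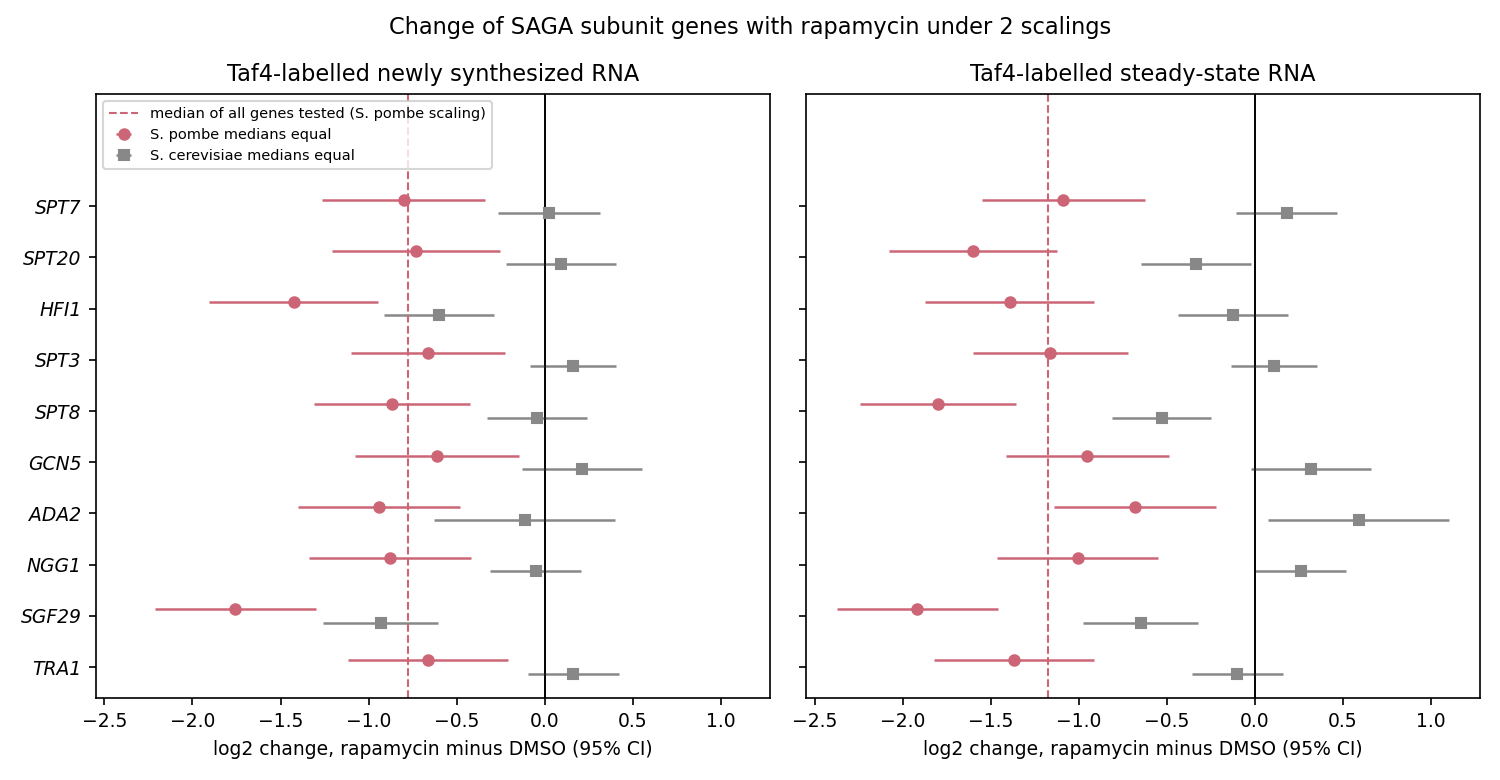
Log2 change with rapamycin (points, with 95% confidence intervals of limma's fit) of the 10 SAGA genes in both Taf4-labelled fractions. Red circles are relative to the spike-in, where all 10 lie below 0 and scatter around the median of all genes (dashed); grey squares are with S. cerevisiae medians made equal, where 5 genes in each fraction lie above 0 and SGF29 and HFI1 (newly synthesized) or SGF29 and SPT8 (steady-state) were called lower.

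Whether the fall differed between the fractions depended on the setting. The change in steady-state RNA was subtracted from that in newly synthesized RNA, and by limma over the 8 arrays 0 of 10 members passed, where 1.19% of all genes passed as positive and 0.138% as negative. At an unadjusted p under 0.05 there were 3 members, SPT8 (0.93, SE 0.31), SPT20 (0.87, SE 0.33) and TRA1 (0.71, SE 0.32), beside 25.8% of all genes. Their adjusted p-values were 0.0876, 0.118 and 0.16. The intervals are wide: for SPT8 the 95% interval ran from 0.30 to 1.55, for HFI1 (-0.03) from -0.71 to 0.64, and for ADA2 (-0.26) from -0.91 to 0.39. Without steady-state replicate 1 without rapamycin 3 members passed (SPT8, SPT20 and TRA1, adjusted p = 0.0283, 0.0331 and 0.0433), and the same 3 without steady-state replicate 2 with rapamycin (0.0295, 0.0198 and 0.0368). In these settings 17.4% and 25.2% of all genes passed as positive. A loess scaling gave 4, the 3 and SPT3, where 56.9% of all genes passed as positive. With the brighter spike-in genes alone SPT8 passed (adjusted p = 0.0456), as did 6.08% of all genes. The direction of this difference turned for SPT7, NGG1, GCN5 and SGF29 with S. cerevisiae medians made equal, for NGG1 on the values as deposited, and for HFI1 under the loess scaling and with the brighter spike-in genes alone. With S. cerevisiae medians made equal 0 members passed by limma, where 1.4% of all genes passed as negative and 0.436% as positive.

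The 2 fraction labels can also be set against each other. Since both are scaled to the S. pombe cells, which were labelled in the same way, a value below 0 means that the gene's signal relative to S. pombe was lower in the newly synthesized arrays than in the steady-state arrays. Without rapamycin all 10 SAGA genes were lower, from -1.02 (SPT3) to -2.23 (SPT20), and their median was -1.60 beside -1.27 over all genes, of which 83.1% were lower and 2.57% higher; SPT3, ADA2 and GCN5 turned above 0 with S. cerevisiae medians made equal. With rapamycin 9 of 10 were lower, where 71.4% of all genes were lower and 1.1% higher, and the median was -1.40 beside -0.83 over all genes; SPT3, SPT8 and GCN5 turned above 0 with S. cerevisiae medians made equal. SPT8 was the member that did not pass (-0.45, SE 0.22, adjusted p = 0.0639), and it did pass without either steady-state replicate without rapamycin (adjusted p = 0.0329 for both). SPT3 (-0.53, adjusted p = 0.0295) did not pass without steady-state replicate 2 with rapamycin (adjusted p = 0.184) or without either newly synthesized replicate with it (0.187 and 0.0766), nor on the values as deposited (adjusted p = 0.162). GCN5 did not pass without newly synthesized replicate 1 with rapamycin (adjusted p = 0.0986).

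Against the other S. cerevisiae genes the members split in this comparison. Without rapamycin SPT20 (-0.85), NGG1 (-0.60), SGF29 (-0.54) and SPT7 (-0.35) were lower in the newly synthesized arrays than the rest, among 22.7% of all genes, and SPT3 (0.35) was higher, among 37.5%. With rapamycin NGG1 (-0.91), SGF29 (-0.82), HFI1 (-0.66), SPT7 (-0.51) and SPT20 (-0.42) were lower, among 18.3%, and SPT8 (0.49) and SPT3 (0.41) higher, among 34.6%. The 4 genes lower without rapamycin were thus all among the 5 lower with it, and SPT3 was higher in both. The adjusted p-values of these 12 calls lay between 0.00035 and 0.0365.

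**Figure D3:**
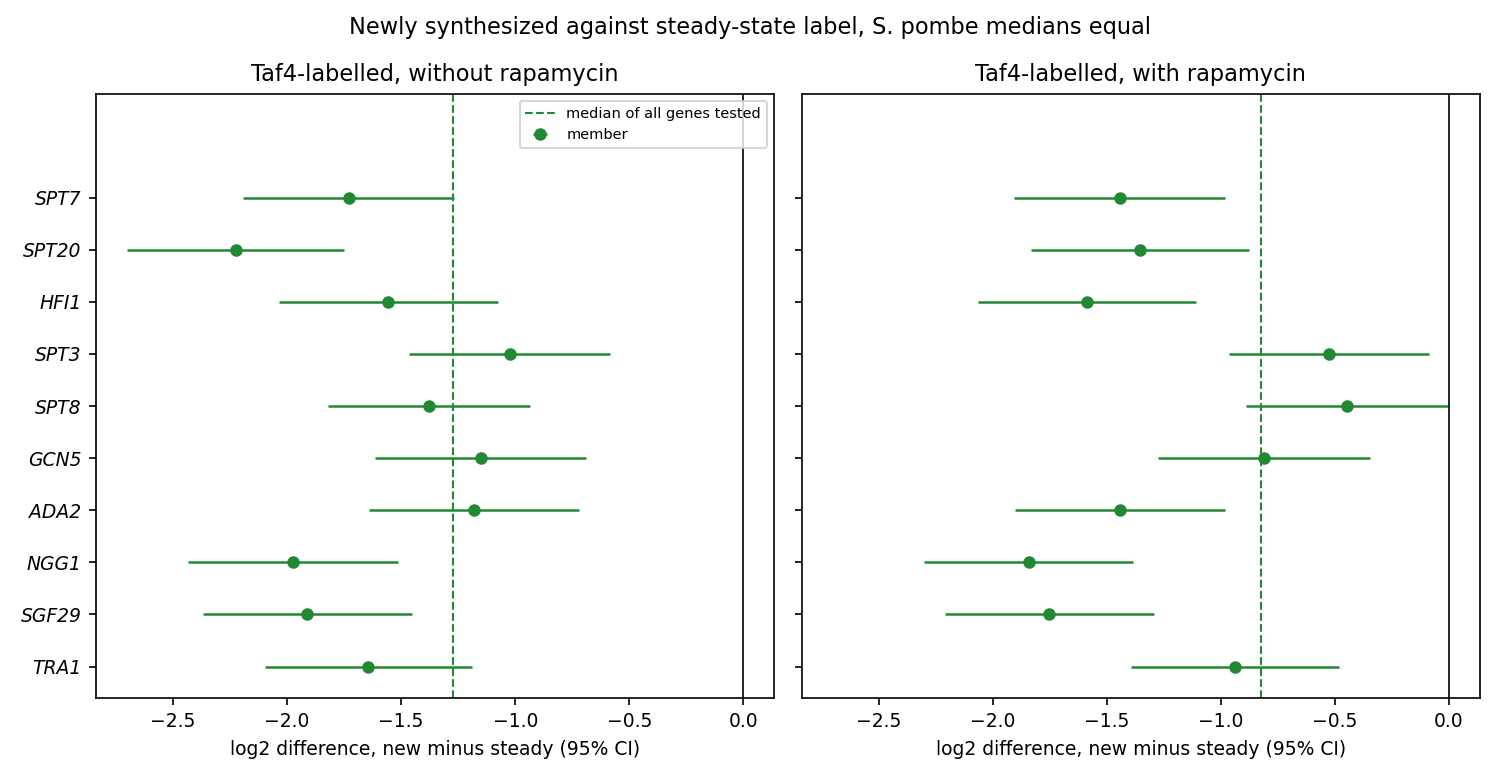
Log2 difference between the newly synthesized and the steady-state label (points, with 95% confidence intervals) of the 10 SAGA genes, without and with rapamycin, with S. pombe medians made equal. All points lie below 0, with SPT20 lowest without and NGG1 lowest with rapamycin; dashed lines are the medians of all genes, -1.27 and -0.83, and with S. cerevisiae medians made equal SPT3, ADA2 and GCN5 (without) or SPT3, SPT8 and GCN5 (with rapamycin) lie above 0.

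On the spike-in scale the order of the 4 groups was nearly the same for every member. By group means, steady-state RNA without rapamycin was highest and newly synthesized RNA with rapamycin lowest in 10 of 10. These places of the means were held in 90.8% and 87.9% of all genes. In the members neither group overlapped its neighbour. The share of all genes without such an overlap was not counted, so nothing particular to the members can be read from it. With S. cerevisiae medians made equal the same places of the means were held in 5 and 3 members and in 27.9% and 22.3% of all genes. Both steady-state arrays lay above both newly synthesized ones in 89.2% of all genes without rapamycin and in 86.1% with it, and below them in 5.05% and 4.89%. The middle places differed. Steady-state RNA with rapamycin came second in 7 genes, while newly synthesized RNA without rapamycin did in SPT3, SPT8 and SGF29; over all genes the shares were 50.2% and 41.5%. The middle groups overlapped in 4 genes (SPT3, GCN5, HFI1 and SGF29) and did not in the other 6, nor in 63.6% of all genes. For SGF29 their means were 6.94 ± 0.33 and 6.93 ± 0.35 (SD, n = 2 each), and for NGG1 they were furthest apart, at 9.69 ± 0.39 with rapamycin in steady-state RNA and 8.72 ± 0.10 without it in newly synthesized RNA.

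Over the same 8 arrays, the genes most like the mean SAGA profile were LGE1, which is needed for ubiquitination of histone H2B, MDS3, a regulator of sporulation, GCD14, a subunit of a tRNA methyltransferase, and MRD1, a ribosome assembly factor. Likeness was the root mean square distance between gene-centred log2 signals, which was 0.052, 0.058, 0.060 and 0.067 for these genes. Their changes were -0.88, -0.95, -0.91 and -0.92 in newly synthesized and -1.25, -1.37, -1.43 and -1.31 in steady-state RNA, on the spike-in scale. The members themselves were further from their own mean. TRA1 was nearest, at 0.12, and ranked 170th of 4360 genes, while SGF29 was furthest, at 0.44. SGF29 and SPT3 (0.33) lay beyond the median gene's 0.32, and the other members were nearer than that.

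The other parts of SAGA were read on the same arrays, and lower calls here are relative to the spike-in. On that scale 79.4% of all genes fell in newly synthesized and 86.8% in steady-state RNA. All 4 genes of the deubiquitinase module, UBP8 (the protease), SGF11, SGF73 and SUS1, fell in both fractions, with medians of -0.92 and -1.41. SGF73, which tethers the module, fell furthest in steady-state RNA, by 1.90 (SE 0.23), and SUS1, shared with an mRNA export complex, least, by 0.60 (SE 0.23). With S. cerevisiae medians made equal, 0 of the 4 were called in newly synthesized RNA, where 8.92% of all genes were lower and 15.6% higher. In steady-state RNA SGF73 (-0.63) was called lower, among 18.1% of all genes, and SUS1 (0.67) higher, among 32%. The 5 TAF genes shared with TFIID (TAF5, TAF6, TAF9, TAF10, TAF12) fell in both fractions, with medians of -0.67 and -1.28. These were 0.16 and -0.01 with S. cerevisiae medians made equal, where 2 of the 5 were called higher in steady-state RNA, as were 32% of all genes.

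The complexes that share subunits with SAGA were read in the same way, again beside 79.4% and 86.8% of all genes that fell. Of the genes private to the ADA complex, AHC1 fell by 0.70 and 1.28. AHC2 had changes of -0.22 and -0.39 that did not pass (adjusted p = 0.324 and 0.088). The medians of the pair were 0.37 and 0.44 with S. cerevisiae medians made equal. On that scale AHC2 was called higher in both fractions, at 0.60 (adjusted p = 0.00391) and 0.88 (adjusted p = 0.000194). Of all genes 15.6% (newly synthesized) and 32% (steady-state) were higher there. Of 11 NuA4 genes that partner TRA1, 10 passed the filter and 9 fell in each fraction, with medians of -0.93 and -1.17, which were -0.11 and 0.10 with S. cerevisiae medians made equal. EAF7, the one that did not pass relative to the spike-in, had changes of -0.15 and 0.14 on that scale. With S. cerevisiae medians made equal EAF7 was called higher in both fractions (adjusted p = 0.0383 and 0.00045). Of 10 genes for TBP and for TFIID subunits not shared with SAGA, 9 fell in each fraction, with medians of -0.77 and -1.26. These were 0.05 and 0.01 with S. cerevisiae medians made equal. TAF7 in newly synthesized RNA (-0.43) and TAF14 in steady-state RNA (-0.40) did not pass relative to the spike-in. With S. cerevisiae medians made equal TAF4 (-0.52) was called lower in newly synthesized RNA, as were 8.92% of all genes. In steady-state RNA TAF14 (0.86, adjusted p = 0.00418) and TAF3 (0.30, adjusted p = 0.0496) were called higher on that scale.

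Of 8 genes often used to study SAGA at promoters (GAL1, GAL10, PHO5, PHO84, ARG1, HIS3, INO1, HO), 5 passed the filter. In newly synthesized RNA PHO5, a phosphatase gene, fell by 0.75 and ARG1, of arginine synthesis, rose by 2.23. PHO84 (-0.37), HIS3 (-0.38) and HO (-0.26) did not pass there. In steady-state RNA PHO5, PHO84, HIS3 and HO fell, by 1.16, 0.67, 0.68 and 0.69, and ARG1 rose by 1.84. With S. cerevisiae medians made equal all 5 had values above 0, so the direction of these falls depends on the spike-in. On that scale 4 were called higher in each fraction, where 15.6% (newly synthesized) and 32% (steady-state) of all genes were higher.

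The array also carries S. pombe probe sets of the same names for all 10 genes, which read SAGA in spike-in cells for which no rapamycin is named. Of these, 5 (ngg1, gcn5, hfi1, tra1, sgf29) passed the filter on dim genes among S. pombe genes, and the others lay at the 1.6th to 19.6th percentile of mean signal. In newly synthesized RNA 0 of 5 changed by limma, 0 at an unadjusted p under 0.05, with changes from -0.13 to 0.17. Of all 1392 S. pombe genes 0% were lower and 0% higher, and 44 had an unadjusted p under 0.05. The S. cerevisiae counterparts of these 5 fell by 0.61 to 1.76 on the same arrays and scale. That scale makes the S. pombe medians equal, so S. pombe changes centre near 0 by construction and are no independent control. On the values as deposited the median change was 0.35 over S. pombe genes and -0.40 over S. cerevisiae genes. With S. cerevisiae medians made equal the counterparts changed by -0.93 (SGF29) to 0.21 (GCN5).

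In steady-state RNA the spike-in itself differed. S. pombe tra1, which in that species serves SAGA while a paralogue serves NuA4, stood at 8.68 and 8.77 without rapamycin and at 7.96 and 8.07 with it, a fall of 0.71 (SE 0.14, adjusted p = 0.00135). S. pombe sgf29 stood at 6.93 and 6.92 without and 8.09 and 7.53 with rapamycin, a rise of 0.88 (SE 0.18, adjusted p = 0.00193). Their groups did not overlap, nor did those of gcn5, whose change of 0.10 did not pass. The share of all S. pombe genes without an overlap was not counted. The other 3 had changes between -0.27 and 0.10 that did not pass. Of all S. pombe genes 22% were lower and 32.1% higher, so 2 of 5 is near that background. The fall of S. cerevisiae TRA1 in the same arrays was 1.37 and that of SGF29 was 1.92. The part of the uneven spike-in in the steady-state results was not tested. Without the filter on dim genes, S. pombe spt7 was also called lower (-0.68, adjusted p = 0.0313).

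S. pombe sgf29 was also out of step between the fraction labels. Without rapamycin it was 1.60 higher (SE 0.18, adjusted p = 1.64e-05) in the newly synthesized than in the steady-state arrays, where S. cerevisiae SGF29 was 1.91 lower. S. pombe tra1 was 0.83 lower there (SE 0.14, adjusted p = 0.00025), ngg1 0.57 lower and gcn5 0.45 lower, and hfi1 (-0.04) did not pass. Of all S. pombe genes 26% were lower and 41.7% higher in that comparison. With rapamycin gcn5 was 0.51 lower (SE 0.13, adjusted p = 0.0355) and the other 4 did not pass, where 3.81% of S. pombe genes were lower and 6.68% higher. The change with rapamycin in newly synthesized RNA minus that in steady-state RNA passed for tra1 (0.57) and sgf29 (-0.99), as for 8.41% of S. pombe genes above 0 and 24.1% below. Without the filter on dim genes tra1 did not pass (adjusted p = 0.0663) and sgf29 did (adjusted p = 0.0429).

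**Figure D4:**
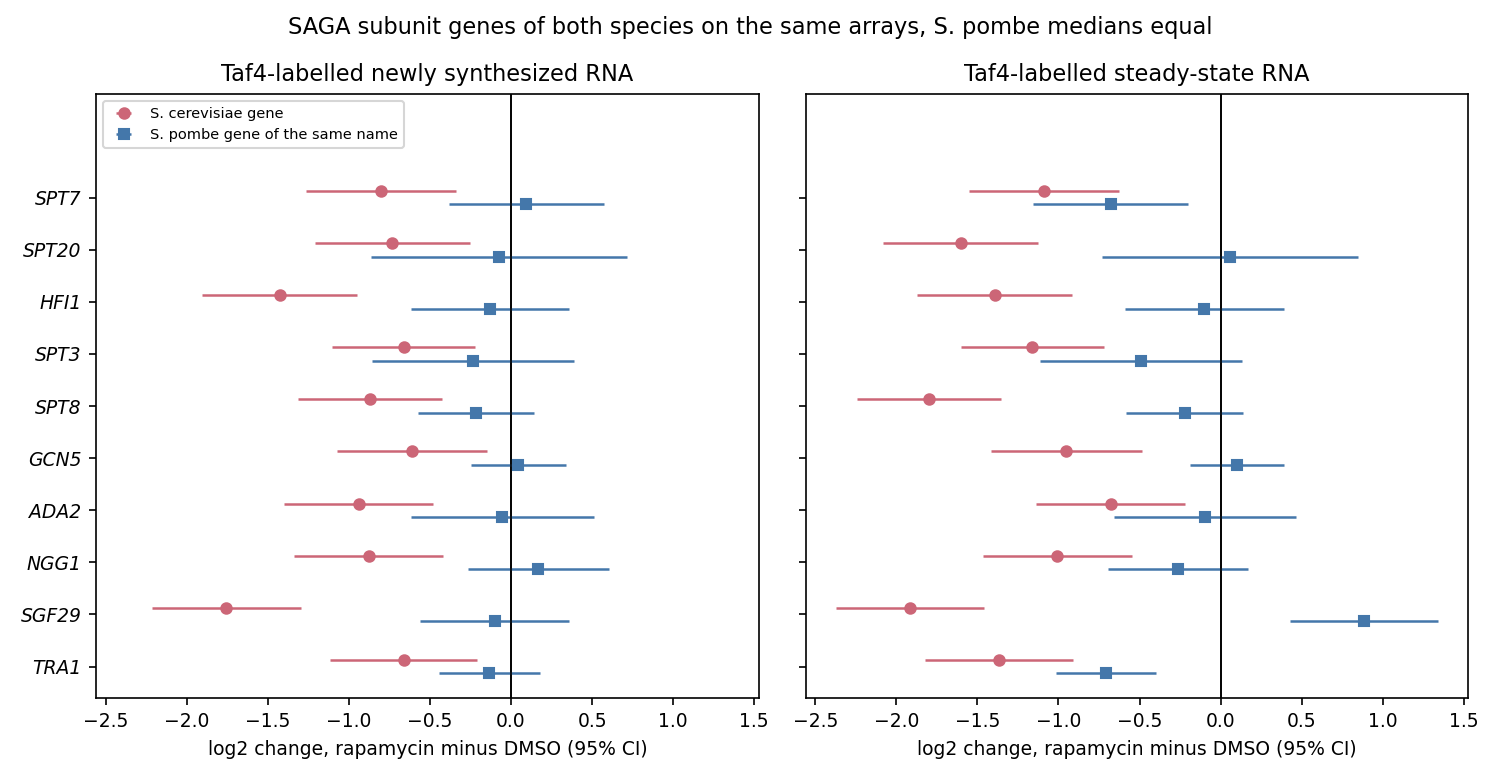
Log2 change with rapamycin (points, with 95% confidence intervals) of the SAGA genes of S. cerevisiae (red circles) and of the S. pombe genes of the same names (blue squares, fitted without the filter on dim genes), with S. pombe medians made equal. In newly synthesized RNA every S. pombe point lies between -0.24 and 0.17; in steady-state RNA S. pombe tra1 (-0.71), spt7 (-0.68) and sgf29 (0.88) lie away from 0, and with S. cerevisiae medians made equal 5 of the S. cerevisiae genes in each fraction would lie above 0.

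The Taf5-labelled arrays that recur nowhere are 1 array per condition, so they carry no test. In the one labelled steady-state without rapamycin (replicate 2), all 10 SAGA genes lay below both Taf4-labelled arrays of the same labels, with a median gap of -1.32, and 84.9% of all genes did so, with a median gap of -0.92. Set against the Taf4-labelled newly synthesized arrays without rapamycin, 5 members lay above both, 4 below both and SPT3 between them, with a median gap of 0.10; of all genes 69.4% lay above and 20.8% below, with a median gap of 0.31. SGF29 was at 6.40 there, against 8.79 and 8.90 under the same labels and 6.70 and 7.17 under the other fraction label. In that array 9 of the 10 genes stood nearer to the mean of the other fraction label than to that of their own, as did 75.6% of all genes. TRA1 was the exception, 0.70 below the mean of its own label and 0.95 above the other.

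In the array labelled Taf5 newly synthesized with rapamycin (replicate 2), 7 members lay above both Taf4-labelled arrays of the same labels, SPT3 and SPT8 below both and GCN5 between them, with a median gap of 0.57; of all genes 62.5% lay above and 32.6% below. In that array 5 of the 10 genes, and 54.1% of all genes, stood nearer to the mean of the other fraction label. TRA1 stood at 9.45, against 7.94 and 8.04 under the same labels and 8.71 and 9.14 in steady-state RNA with rapamycin. It was the 1 member above all 4 Taf4-labelled arrays with rapamycin, and 17.9% of all genes lay above both of the steady-state ones. TRA1 was at 9.60 in the Taf5-labelled array without rapamycin, so its 2 values there nearly coincide. SPT3, at 7.46, and SPT8, at 7.02, lay below all 4 Taf4-labelled arrays with rapamycin. HFI1, at 7.43, was level with the lower steady-state array, and the other 8 members lay below both of those, as did 64.2% of all genes.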

How the data were processed

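Each of 16 samples was hybridised to 1 Affymetrix Yeast Genome 2.0 array. The authors deposited linear intensity values. Per the submitters' processing notes they were made with Affymetrix Expression Console 1.4.1; neither summary algorithm nor background correction is given in the sources used here. The trimmed mean of each deposited column is near 500 or 100 signal units, so columns were scaled over both species together. The labels' protocol gives 1 µg/mL rapamycin and the design text 5 µM.

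Of 10928 probe sets, 5498 matched S. cerevisiae genes of assembly R64 by Entrez identifier, and 1746 carried S. pombe names. The deposited intensities were turned to log2 with no pseudocount and shifted per array to an equal S. pombe median. A gene was read from its brightest probe set, and the dimmest 20% of genes by mean signal were not tested. The 8 Taf4-labelled arrays were fitted together with limma 3.58.1 in R 4.3.3 (4 groups, 5 contrasts, no block). S. pombe genes were fitted in the same way. The fit was tested on simulated data. The number of arrays limits the precision.

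The text names all 10 members, the listed partner genes whose calls differ from the rest of their list, and the 4 genes with the nearest profile. The members, lists and alternatives were chosen with earlier results of these data known. Alternatives were 4 other choices of scaling or spike-in genes, 2 filters, probe sets averaged per gene, a trend of variance with intensity, the replicate number as a block, the arrays of 1 fraction alone and leaving out each array. Replicate numbers were checked for pairing. Promoter and protein sequences were not used here.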

Additional observations from a re-analysis of the deposited data

Results flagged for a closer look

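The change with rapamycin differed between the fraction labels for S. pombe tra1 and sgf29, by limma's test of the difference itself. For tra1 the change in newly synthesized RNA minus that in steady-state RNA was 0.57 (SE 0.20, adjusted p = 0.0423), and for sgf29 it was -0.99 (SE 0.26, adjusted p = 0.0134). Without the filter on dim genes tra1 did not pass (adjusted p = 0.0663). The same test passed for 24.1% of all S. pombe genes below 0 and 8.41% above 0.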

How the results depend on the processing

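With S. cerevisiae medians made equal, 2 SAGA genes were called lower in newly synthesized and 2 in steady-state RNA, beside 8.92% and 18.1% of all genes. On that scale 5 differed between the fraction labels without rapamycin, where 22.7% of all genes were lower and 37.5% higher. Values then turned above 0 for SPT3 (0.16), SPT7 (0.0234), SPT20 (0.0925), GCN5 (0.21) and TRA1 (0.16) in newly synthesized RNA and for SPT3 (0.11), SPT7 (0.18), ADA2 (0.59), NGG1 (0.26) and GCN5 (0.32) in steady-state RNA. They also turned between the fraction labels for SPT3 (0.35), ADA2 (0.19) and GCN5 (0.22) without rapamycin and for SPT3 (0.41), SPT8 (0.49) and GCN5 (0.12) with it. On the values as deposited 5 members fell in newly synthesized RNA, beside 48.5% of all genes. Leaving out each array gave 6 to 10 lower members in newly synthesized RNA, 9 to 10 in steady-state RNA, 10 and 7 to 10 differing between the fraction labels without and with rapamycin, and 0 to 3 whose change differed between the fractions. That last count was 4 under the loess scaling and 1 with the brighter spike-in genes alone. The cause was not tested.

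The labels do not say that replicate numbers pair samples, and deviations of same-numbered arrays correlated at -0.018 to 0.174 across genes, so a pairing was not established. With the replicate number as a block, 3 members (SPT8, SPT20, TRA1) passed the test of the difference between fractions, beside 23% of all genes above 0 and 0.872% below. In that fit 10 members fell with rapamycin in each fraction, beside 86.4% (newly synthesized) and 89.7% (steady-state) of all genes. Between the fraction labels 10 differed without and 10 with rapamycin, where 85.5% and 77.6% of all genes were lower. The 40% filter removed GCN5, HFI1 and SGF29, leaving 7 members.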

Other observations

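On the spike-in scale replicate 2 of a steady-state group was above replicate 1 for most genes: for 9 of 10 SAGA genes without rapamycin and 10 of 10 with it, beside 91.6% and 86.8% of all genes, with median gaps of 0.46 and 0.46 for the members. ADA2 was the exception without rapamycin, at 9.06 in replicate 1 and 8.59 in replicate 2. In newly synthesized RNA the members' median gaps were 0.15 and 0.11.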
